A study of Mus musculus with 6 samples.

Results

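The 9 mitophagy genes described here are Pink1, Park7, Sqstm1, Usp30, Bnip3, Bnip3l, Fundc1, Mfn1 and Mfn2, taken by their gene symbols from the 57010 genes of the count table and followed through all 6 libraries. They were selected on their symbols and role, with the fold changes between BLAJ and control libraries from earlier results of these data in view, so their own values are a description without a test. The libraries came from gastrocnemius muscle of 3 BLAJ mice (strain B6.A-Dysfprmd/GeneJ, homozygous for the Dysf prmd mutation) and 3 C57BL/6 mice of wild-type genotype, all untreated adults aged 3 months. Each animal was a separate biological replicate. BLAJ replicates 1 and 2 were female, and BLAJ replicate 3 and the 3 controls were male, so sex differs between the groups as well as genotype. The mutation is germline and lies on a C57BL/6 background, and the labels do not say that mutants and controls were littermates. Dysf encodes dysferlin, a muscle membrane protein used in resealing the damaged sarcolemma.

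Mitophagy is the removal of damaged or surplus mitochondria by autophagosomes. In its ubiquitin route the kinase PINK1, which healthy mitochondria import and degrade, builds up on the outer membrane of damaged ones, phosphorylates ubiquitin there and sets off ubiquitin tagging that adaptors such as p62, the product of Sqstm1, can bind. In its receptor route the outer-membrane proteins BNIP3, BNIP3L (NIX) and FUNDC1 bind the LC3 family on the autophagosome directly. Skeletal muscle has a dense mitochondrial network. The mitofusins MFN1 and MFN2 fuse mitochondria and are tagged when fusion is shut off.

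Dysf averaged 16.9 ± 2.96 CPM (counts scaled to TMM-adjusted library size) in BLAJ muscle and 106 ± 36.9 CPM in control muscle (SD, n = 3 each). On the log2 scale the difference was -2.64, with a standard error (SE) of 0.28 and an adjusted p of 0.0249 in edgeR. The adjusted p of Dysf was above the threshold without BLAJ replicate 1, 2 or 3 (0.228, 0.178 and 0.0637), with sex as a covariate (0.546) and in males only (0.998), with log2 fold changes of -2.80 to -2.38 in these 5 settings. Library totals ran from 35042245 to 43733641 read pairs. A count of 3 in 1 library, the floor used here, equals 0.0686 to 0.0856 CPM, and that limit covers counting error only. The muscle genes Acta1, Ckm and Des were at 3359 CPM or more in every library. Xist and Ddx3y followed the labelled sexes. Transcripts that C57BL/6 mice are known to lack were absent or nearly so from BLAJ muscle (0 counts of Ifi202b and 1 of H2-Ea-ps over the group), but the controls had between 1.02 and 7.69 CPM of Ifi202b and between 2.37 and 3.44 CPM of H2-Ea-ps. This goes against the strain label of the controls, so differences of strain cannot be told apart from the Dysf genotype. Control replicate 2 stood apart from the rest, with 20.1 CPM of Chrng, the fetal subunit of the acetylcholine receptor, where no other library passed 0.749 CPM.

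The sequences shown first concern stretches that Bnip3 shares with other genes. Of 2260 stretches of 61 bases (the read length) in Bnip3 transcripts, 932 (41.2%) also occurred in another gene of the GENCODE M21 annotation, on either strand. Of Bnip3's stretches, 326 were shared with the reverse strand of Gm45507, which overlaps Bnip3 at its own locus. Genes elsewhere shared 622 (AC160336.1, reverse strand), 253 (Gm16439) and 210 (Gm6532), and a stretch can be shared with several genes. The coding sequence of 564 bases shares an unbroken run of 163 bases, from coding position 399 to 561, with the pseudogene Gm6532, and one of 158 bases, from position 407 to 564, with the pseudogene Gm16439. The deposited files list read pairs that map to several places apart from the genes, and which pairs of these runs were among them was not followed. The run shared with Gm6532, the longer of these runs, is given whole on its own line. Its part in the Bnip3 count was not tested.

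Bnip3 and Gm6532: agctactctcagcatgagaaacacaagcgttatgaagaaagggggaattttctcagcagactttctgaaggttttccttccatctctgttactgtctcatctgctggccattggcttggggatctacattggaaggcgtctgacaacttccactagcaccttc

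By contrast the longest identical run between the coding sequences of the paralogs Bnip3 and Bnip3l was 14 bases, and that between Mfn1 and Mfn2 was 21 bases, shorter than a read, so reads are not shared between the paralogs of either pair. The mitofusin run is shown to give its scale.

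Mfn1 and Mfn2: ctggattgataagttttgcct

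Bnip3l shared 734 of 3853 stretches (19.1%) with its pseudogene Bnip3l-ps, which itself had between 7 and 26 counts per library. For Sqstm1 the shared stretches were 523 (15.1%), for Usp30 373 (6.16%), for Pink1 59 (2.21%) and for Mfn1 11 (0.181%). Those of Sqstm1 and Usp30 came from genes that overlap them on the opposite strand (Mrnip, and Alkbh2 and Svop). Park7, Fundc1 and Mfn2 had 0.

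Promoter sequences from RefSeq (GRCm38.p6, 250 bases before to 50 bases after the annotated start) were matched for 8 of the 9 genes, with 10 entries in all. Bnip3 is known as a target of hypoxia-inducible factor, and its promoter held the core ACGTG of the hypoxia response element, inside the palindrome CACGTG read by TFEB and by clock factors. Searched on both strands, ACGTG was present for 2 of the 8 genes, Bnip3 and Mfn2, and in 19.6% of 32851 promoters of the same length. A gene was counted if any of its entries matched, whereas the percentages are over single entries. Mfn2 matched in its entries 2 and 3 and not in entry 1. CACGTG was present for 1, Bnip3, and in 7.15% of promoters. The FoxO site TGTTTAC and the antioxidant core TGACNNNGC were found in 0 of the 8, beside 3.65% and 12.4% of all promoters. For each gene with a match 1 matching promoter follows, with the matched letters in capitals, together with that of Pink1, the gene whose level varied most. Bnip3 lies on the minus strand at chr7:138909457-138909756, Mfn2 (entry 2 of 3) on the minus strand at chr4:147904649-147904948, and Pink1 on the minus strand at chr4:138326247-138326546.

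Bnip3 promoter: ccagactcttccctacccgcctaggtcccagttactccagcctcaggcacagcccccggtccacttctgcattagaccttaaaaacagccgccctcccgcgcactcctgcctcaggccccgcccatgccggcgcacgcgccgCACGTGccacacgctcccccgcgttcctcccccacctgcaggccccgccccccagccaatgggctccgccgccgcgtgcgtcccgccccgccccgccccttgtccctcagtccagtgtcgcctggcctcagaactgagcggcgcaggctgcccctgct

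Mfn2 promoter: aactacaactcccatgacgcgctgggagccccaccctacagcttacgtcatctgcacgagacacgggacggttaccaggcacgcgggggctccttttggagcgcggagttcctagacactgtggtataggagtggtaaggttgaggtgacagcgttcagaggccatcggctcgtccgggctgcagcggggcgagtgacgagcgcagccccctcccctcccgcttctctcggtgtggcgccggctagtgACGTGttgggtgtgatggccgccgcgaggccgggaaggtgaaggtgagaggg

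Pink1 promoter: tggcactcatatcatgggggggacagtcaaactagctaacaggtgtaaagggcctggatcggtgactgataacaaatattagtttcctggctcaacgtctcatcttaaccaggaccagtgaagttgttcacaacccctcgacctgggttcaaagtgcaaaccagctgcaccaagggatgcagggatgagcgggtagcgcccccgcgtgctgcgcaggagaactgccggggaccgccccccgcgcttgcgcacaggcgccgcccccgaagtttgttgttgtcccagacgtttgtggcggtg

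A match of these letters is a description of the window and not evidence of binding.

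None of the 9 genes separated BLAJ from control muscle. In the fit over all 15589 tested genes, edgeR's quasi-likelihood test called 0 of the 9 at a Benjamini-Hochberg adjusted p below 0.05, while it called 0.199% of all genes. At an unadjusted p below 0.05 the count was also 0 of 9, beside 6.94% of all genes. DESeq2, which called 1.18% of the genes it tested, and limma-voom, which called 0.135%, each called 0 of 9 as well. The authors' deposited table called none of them, beside 1.19% of the genes with an adjusted p there. The 2 groups' values overlapped for all 9 genes, whereas 12.1% of tested genes did not overlap. The fold changes were positive for 6 genes and negative for 3, with a median log2 value of 0.19, beside -0.0015 over all tested genes. In bulk muscle fewer cells of a type and less RNA per cell cannot be told apart.

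**Figure D1:**
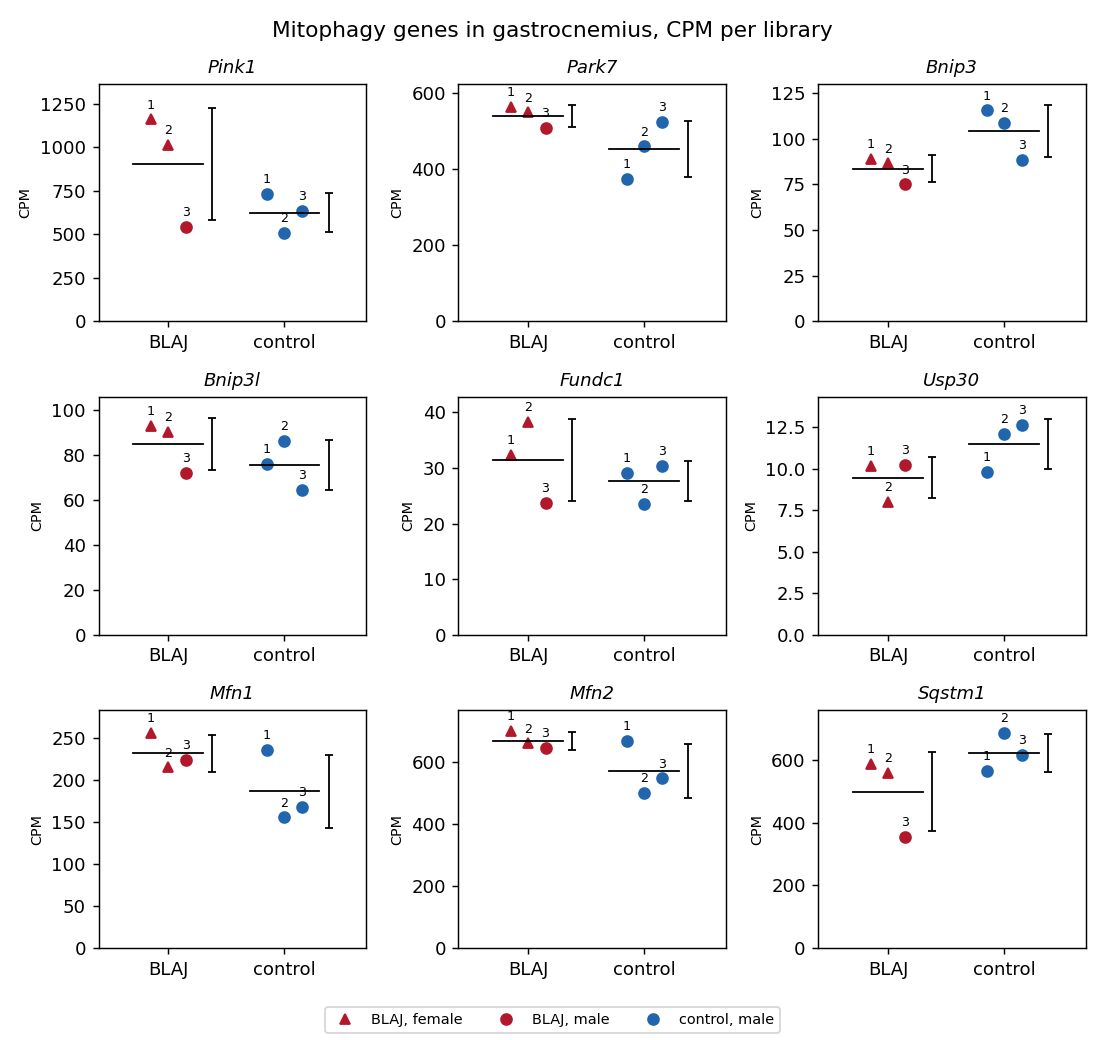
CPM of each mitophagy gene (vertical axes from 0) in the 3 BLAJ and the 3 control libraries; numbers are replicates, triangles females, circles males, horizontal lines group means and bars ± 1 SD. The groups overlap in all 9 panels, and the male BLAJ library (3) is the lowest of its group in 7 of them and sits apart from the female pair for Pink1 and Sqstm1.

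Pink1, the kinase that starts the ubiquitin route, had 1160.2 and 1013 CPM in the female BLAJ libraries 1 and 2 and 542 CPM in the male BLAJ library 3, against 731, 508 and 633 CPM in control libraries 1, 2 and 3. Both female BLAJ libraries lay above every control, and the male lay inside the control range. The means were 905 ± 323 CPM in BLAJ and 624 ± 112 CPM in control muscle (SD, n = 3 each), for a log2 fold change of 0.54 (SE 0.30). Within BLAJ the female mean stood 1.00 log2 unit above the male, and the male stood -0.20 log2 units from the control mean. The sign of the difference from control was thus not the same in the female pair and in the 1 male BLAJ animal, whose sex and other traits cannot be told apart. With sex in the edgeR model, where the contrast rests on BLAJ library 3 alone because all controls are male, the log2 fold change of Pink1 was -0.20 (SE 0.27).

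Park7 encodes DJ-1, a redox-sensing protein that protects mitochondria and whose loss, like that of PINK1, causes recessive Parkinson disease. Its level was 563, 549 and 508 CPM in BLAJ libraries 1, 2 and 3, against 375, 459.7 and 523 CPM in the controls. The BLAJ values were close together, and only control 3 reached into their range. Means of 539.8 ± 28.8 CPM in BLAJ and 453 ± 74.4 CPM in control muscle (SD, n = 3 each) gave a log2 fold change of 0.25 (SE 0.17).

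Sqstm1, the gene of the adaptor p62, which links ubiquitin-tagged cargo to LC3 and is itself degraded with it, had 587, 558 and 354 CPM in BLAJ libraries 1, 2 and 3 and 567, 687 and 617 CPM in control libraries. The male BLAJ library was the lowest of the 6 and the female pair lay on either side of the lowest control. The group means were 499.9 ± 127 CPM in BLAJ and 624 ± 60.1 CPM in control muscle (SD, n = 3 each), with a log2 fold change of -0.32 (SE 0.22). The male BLAJ value stood -0.82 log2 units from the control mean and the female mean -0.12. DESeq2 with sex as a covariate, an alternative chosen after seeing the data, called 1 of the 9 genes, Sqstm1, at -0.84 on the log2 scale, beside 0.558% of all genes; edgeR with the same covariate gave -0.82 (SE 0.23) and called 0 of 15589 genes. Both values rest on BLAJ library 3.

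Usp30, a deubiquitinase of the outer mitochondrial membrane that opposes ubiquitin tagging, was the least abundant of the 9. It measured 10.2, 8.02 and 10.2 CPM in BLAJ libraries against 9.79, 12.1 and 12.6 CPM in controls, from 291 to 534 read pairs per library. Control 1 lay among the BLAJ values. The means of 9.48 ± 1.26 CPM in BLAJ and 11.5 ± 1.51 CPM in control muscle (SD, n = 3 each) differed by -0.28 log2 units (SE 0.17).

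Of the mitophagy receptors, Bnip3 had 89.0, 86.5 and 75.0 CPM in BLAJ libraries 1, 2 and 3, against 115, 109 and 88.3 CPM in controls. BLAJ library 1 and control 3 overlapped by less than 1 CPM. The means were 83.5 ± 7.48 CPM in BLAJ and 104 ± 14.1 CPM in control muscle (SD, n = 3 each), and the log2 fold change was -0.32 (SE 0.15). These values depend on how reads were assigned. The deposited matrix equals the unstranded count in all 57010 genes, although the libraries were directional, and an unstranded count drops a read pair that falls where genes on opposite strands overlap. In GENCODE M21, Gm45507 and Gm18258 lie over Bnip3 on the opposite strand. The part of these overlaps in the deposited Bnip3 count was not tested.

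Counted on its own strand, Bnip3 had 8783, 8067 and 7554 read pairs in BLAJ libraries 1, 2 and 3, against 11751, 10539 and 8209 in controls, where the deposited counts were 3368, 3138 and 2947 in BLAJ libraries and 4621, 4802 and 3474 in controls. The strand-matched count was 2.61, 2.57 and 2.56 times the deposited one in BLAJ libraries and 2.54, 2.19 and 2.36 times in controls. In the other 8 genes this ratio stayed between 0.995 and 1.01. On its own strand the overlapping Gm45507 had only 4, 2 and 6 read pairs in BLAJ libraries and 10, 3 and 1 in controls. On strand-matched counts Bnip3 was at 217, 209 and 180.3 CPM in BLAJ libraries and 276, 224 and 196 CPM in controls, with means of 202 ± 19.4 and 232 ± 40.7 CPM (SD, n = 3 each) in BLAJ and control muscle. Both the deposited and the strand-matched values put the BLAJ mean below the control mean, at -0.32 and -0.20 log2 units (SE 0.15 and 0.17), with overlapping groups in each.

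The copies of Bnip3 were not even across the libraries. AC160336.1, a long noncoding RNA whose opposite strand shares 622 stretches with Bnip3, had deposited counts of 25, 21 and 26 in BLAJ libraries and 41, 536 and 202 in controls, but at most 3 on its own strand. The pseudogene Gm16439 had 7, 13 and 7 strand-matched read pairs in BLAJ libraries, against 7, 122 and 40 in controls, and Gm6532 had 9, 14 and 13 against 13, 60 and 20. Controls 2 and 3, the libraries highest in these copies, also had the lowest ratios of strand-matched to deposited Bnip3 counts. Whether Bnip3 reads were counted for the copies was not tested.

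Bnip3l, the paralog known as NIX and first known for clearing mitochondria from maturing red cells, had 92.8, 90.2 and 71.8 CPM in BLAJ libraries 1, 2 and 3 and 76.1, 86.3 and 64.3 CPM in controls. Both female BLAJ libraries were above all controls and the male was within their range. Means of 84.9 ± 11.4 CPM in BLAJ and 75.6 ± 11.02 CPM in control muscle (SD, n = 3 each) gave a log2 fold change of 0.17 (SE 0.16). Red blood cell genes, given beside it because Bnip3l is known to act in that lineage, summed to between 1366 and 2027 CPM in BLAJ and between 771 and 2067 CPM in control libraries over their 6 markers. None of the 6 was called by edgeR and 1, Hba-a2, was called by DESeq2, beside 0.199% and 1.18% of tested genes. Their part in the level of Bnip3l was not tested.

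The ratio of the 2 paralogs was looked at after their values were seen, and it is given as a description without a test. The ratio of Bnip3l to Bnip3 in deposited CPM was 1.04, 1.04 and 0.958 in BLAJ libraries 1, 2 and 3, against 0.660, 0.794 and 0.728 in controls. On strand-matched counts it was 0.399, 0.405 and 0.373 in BLAJ libraries, against 0.259, 0.361 and 0.308 in controls. The groups did not overlap on either count, beside 12.1% of single genes that did not overlap on deposited counts. The share over ratios of other gene pairs was not computed. BLAJ 3 was the lowest BLAJ ratio on both counts, and on strand-matched counts it lay nearer to control 2 than to the other BLAJ libraries. The mean ratio was 1.01 ± 0.0490 in BLAJ and 0.727 ± 0.0670 in control muscle on deposited counts, and 0.392 ± 0.0172 in BLAJ and 0.309 ± 0.0511 in control muscle on strand-matched counts (SD, n = 3 each).

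**Figure D2:**
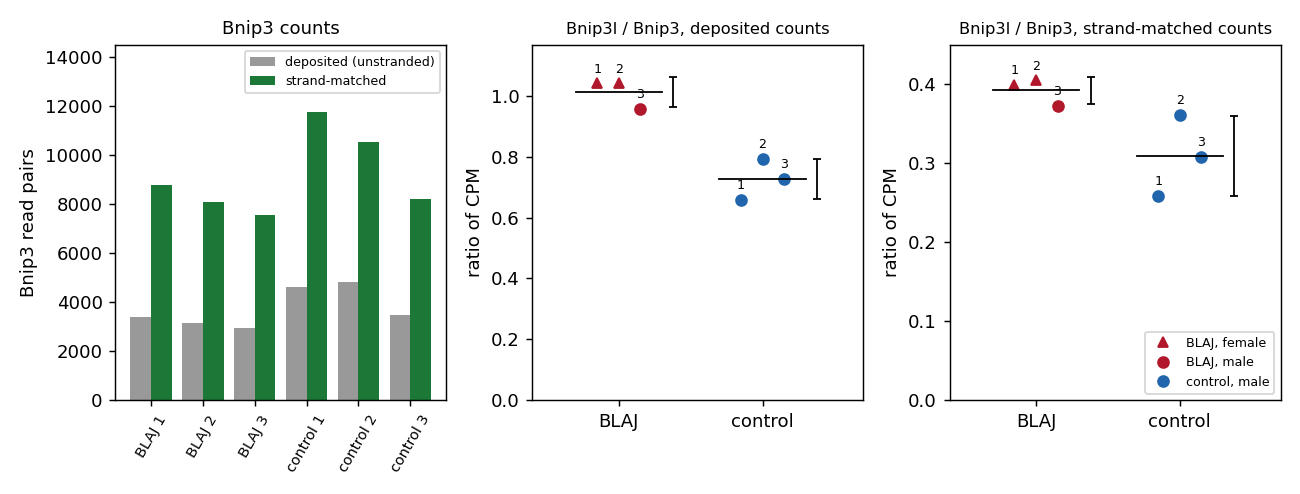
Left, Bnip3 read pairs per library in the deposited unstranded counts (grey) and on the matching strand (green); middle and right, the ratio of Bnip3l to Bnip3 CPM per library under each count, with group means as lines and bars of ± 1 SD. Strand-matched counts are 2.19 to 2.61 times the deposited ones, and the 3 BLAJ ratios lie above the 3 control ratios in both panels.

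Fundc1, a receptor of hypoxia-induced mitophagy that lies on chromosome X, had 32.4, 38.3 and 23.7 CPM in BLAJ libraries 1, 2 and 3, against 29.1, 23.5 and 30.4 CPM in controls. The females were again the highest libraries and the male was among the lowest. The log2 fold change was 0.19 (SE 0.20), from means of 31.5 ± 7.38 CPM in BLAJ and 27.7 ± 3.67 CPM in control muscle (SD, n = 3 each).

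Mfn1, a GTPase that tethers and fuses outer mitochondrial membranes, had 257, 215 and 224 CPM in BLAJ libraries and 236, 156 and 168 CPM in controls. Control 1 lay among the BLAJ values and the other two controls lay below all of them. The means were 232 ± 21.8 CPM in BLAJ and 187 ± 43.2 CPM in control muscle (SD, n = 3 each), and the log2 fold change was 0.31 (SE 0.19). Mfn2, which also anchors mitochondria to the endoplasmic reticulum, showed the same arrangement of libraries, with 699, 659.6 and 644 CPM in BLAJ libraries and 669, 499 and 547 CPM in controls. Its means of 668 ± 28.4 CPM in BLAJ and 572 ± 87.5 CPM in control muscle (SD, n = 3 each) differed by 0.22 log2 units (SE 0.16). The ratio of Mfn1 to Mfn2 was 0.367, 0.326 and 0.348 in BLAJ libraries and 0.353, 0.312 and 0.308 in controls, with overlap. Control 1 was the highest control for both mitofusins and for their ratio. Of all libraries it also had the highest shares of mitochondrially encoded counts (9.75%) and of pairs mapping to several places (9.78%). The part of these shares in the mitofusin values was not tested.

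**Figure D3:**
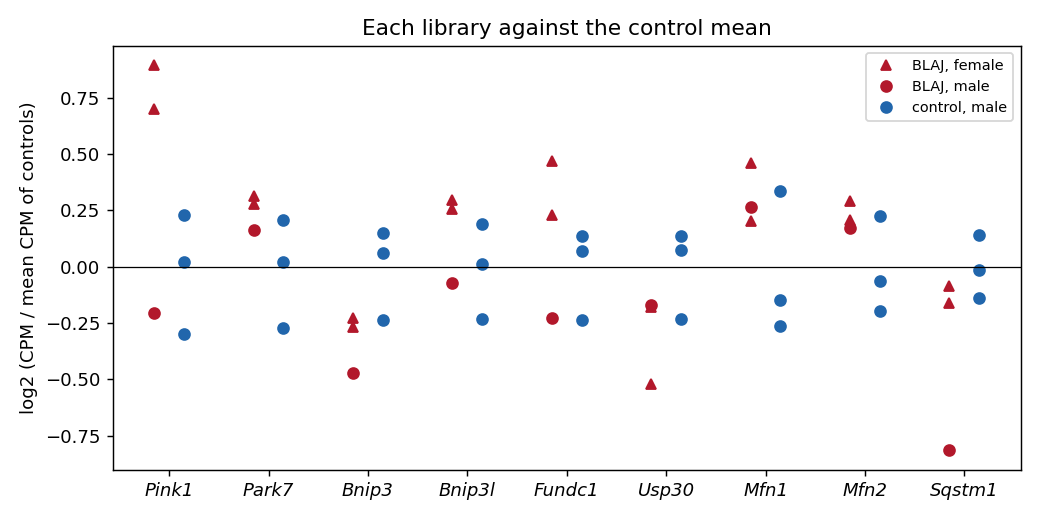
Each library's CPM as a log2 ratio to the mean of the 3 controls, by gene; red triangles are female and red circles male BLAJ libraries, blue circles male controls. The female BLAJ pair lies above all controls for Pink1, Park7, Bnip3l and Fundc1, and the male BLAJ library is the lowest point for Bnip3 and Sqstm1.

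The spread among animals differed by gene. In BLAJ muscle the SD was 35.7% of the mean for Pink1 and 25.4% for Sqstm1, against 5.34% for Park7 and 4.26% for Mfn2. In controls it ran from 9.64% for Sqstm1 to 23.1% for Mfn1. The BLAJ spread of Pink1 and Sqstm1 lay mainly between the female libraries and the male, by 1.00 and 0.69 on the log2 scale. The same difference was 0.58 for Fundc1, 0.35 for Bnip3l, 0.23 for Bnip3 and 0.13 for Park7, and at 0.077 and 0.073 it was smallest for Mfn2 and Mfn1. For Usp30 it was -0.17. With 1 male BLAJ animal, sex and the animal cannot be told apart.

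Pink1 and Sqstm1 had their lowest BLAJ value in the same library, and their ratio was 1.98, 1.82 and 1.53 in BLAJ libraries against 1.29, 0.740 and 1.03 in controls. The ratios did not overlap, but this ratio was also picked after seeing the values and has no test. Of the 3 member ratios computed, that of Mfn1 to Mfn2 overlapped. For this ratio too, no share over other gene pairs was computed. Summed over the 9 genes, the level was 3491, 3218 and 2452 CPM in BLAJ libraries and 2808, 2539.6 and 2685 CPM in controls. The female BLAJ libraries had the highest sums and the male the lowest of all 6.

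Markers of mitochondrial content and fibre type are given beside these values. The 11 genes of mitochondrial content summed to 6551 to 8064 CPM in BLAJ and 6554 to 8100.4 CPM in control libraries, with 0 called and 6 of 11 higher in BLAJ. Mitochondrially encoded transcripts took 6.96%, 5.72% and 4.81% of counts in BLAJ libraries 1, 2 and 3, against 9.75%, 4.28% and 5.03% in controls. The 8 slow-fibre genes summed to 7640.4, 2432 and 7094 CPM in BLAJ libraries and 6203, 4829.6 and 1628 CPM in controls. Within BLAJ, library 2 had the lowest of these sums. Markers of regenerating or denervated fibres summed to 1051 CPM in control 2, and to between 51.9 and 102 CPM in the other 5 libraries. Sln alone gave 678 CPM of the sum in control 2, which was the highest library for every marker of this list except Myh8. None of these lists was at 0 in any group, and the part of fibre type, mitochondrial content or regeneration in the 9 genes was not tested.

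Per length of exon the 9 genes covered a wide range of levels. On strand-matched counts over all 6 libraries, Pink1 averaged 268 ± 92.9 CPM per kb of exon, Park7 188 ± 26.1, Sqstm1 158 ± 31.2, Mfn2 112 ± 14.1 and Bnip3 95.8 ± 14.5 CPM per kb (SD, n = 6). Each of these neighbours in the order overlapped in range with the next, so the order within each neighbouring pair is not resolved. The lowest values of Pink1 and Park7, 178 and 142 CPM per kb, were above the highest of Mfn2 and Bnip3, 126 and 122 CPM per kb. Mfn1 at 32.0 ± 6.01, Bnip3l at 19.5 ± 2.73, Fundc1 at 11.8 ± 2.25 and Usp30 at 1.62 ± 0.258 CPM per kb followed with ranges that did not touch. Of the 3 receptors Bnip3 was the highest per length, Bnip3l next and Fundc1 lowest in each library. On the deposited counts Bnip3 kept the fifth place, with 41.4 ± 6.70 CPM per kb, next to Mfn1 at 34.2 ± 6.44, and these 2 ranges overlapped. Pink1 was first in 4 of the 6 libraries, Park7 in BLAJ library 3 and Sqstm1 in control library 2. Exon lengths come from GENCODE M21 and may differ from those of the annotation the authors used.

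**Figure D4:**
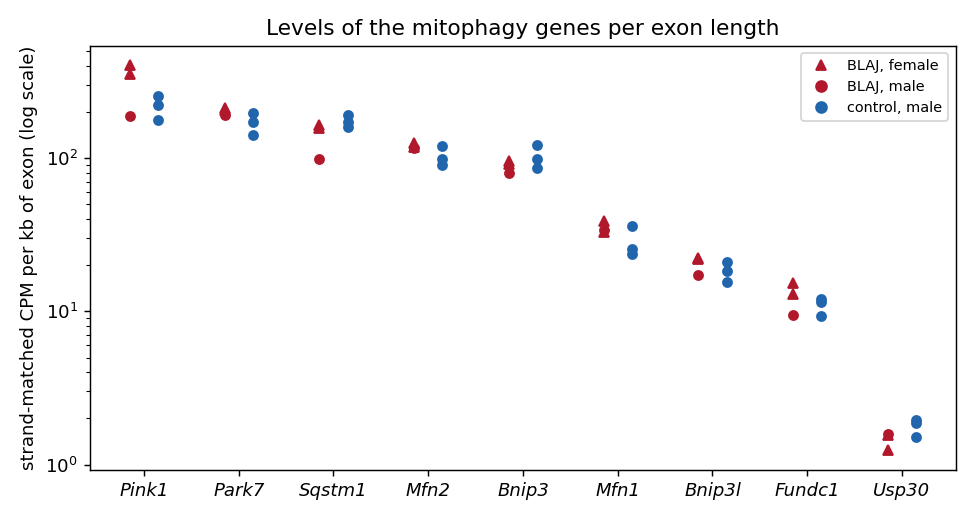
Strand-matched CPM per kb of exon (log axis) for each mitophagy gene and library, ordered by the mean over 6 libraries; triangles are female and red circles male BLAJ libraries, blue circles controls. Pink1 to Bnip3 overlap with their neighbours, and from Bnip3 down to Usp30 the genes are separated in all libraries.

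The genes whose profile over the 6 libraries was most like that of each member were taken by the root mean square difference of centred log2(CPM + 0.5), among 7592 genes with a mean of at least 10 CPM. Pink1 was nearest to Angpt1, an endothelial growth factor ligand, at 0.107 and to Tfeb, the master regulator of lysosome genes, at 0.133, where the median gene was at 0.480. Tfeb had 114, 120.1 and 72.0 CPM in BLAJ libraries and 87.0, 56.2 and 76.5 CPM in controls, with the females high and the male in the control range as for Pink1. Mfn1 was nearest to Slc25a20, the mitochondrial carnitine carrier, at 0.0348 and to Cpt2, the inner-membrane carnitine palmitoyltransferase, at 0.0434. The nearest for Mfn2 were Pih1d1 and Bcs1l, for Park7 Pcna and Snrpb, and for Bnip3 Gprasp1 and Acbd4. Those for Bnip3l were Taf8 and Wwp2, for Fundc1 Pter and Mbnl1, for Usp30 S100a16 and Ndfip1, and for Sqstm1 Mllt11 and Rabgef1. The distances are over 6 libraries only, and because the values were centred they describe likeness of the profile over libraries and not of the level.

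Around these 9 genes, 90 other genes of the pathway were followed in 6 lists, which were written with earlier results known. Of the 89 that passed the filter on low counts (Calcoco2 did not), edgeR called 0 in either direction, beside 0.199% of all genes, and DESeq2 and limma-voom called 0 as well. At an unadjusted p below 0.05 there were 5 (Fkbp8, Optn, Tomm70a, Foxo3 and Nfe2l2), beside 6.94% of all genes. Of the 89, 40 had a positive and 49 a negative fold change, with a median of -0.017. The groups did not overlap for 8 genes that were above control and 8 that were below, beside 5.97% and 6.09% of all tested genes.

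Among the other receptors and adaptors, Optn, a ubiquitin adaptor that acts with p62 in the PINK1 route, had 54.6, 55.8 and 57.7 CPM in BLAJ libraries, against 140.3, 67.4 and 77.8 CPM in controls. The BLAJ values were nearly equal and all below the controls, of which control 1 was far the highest. The log2 difference was -0.76 (SE 0.27, adjusted p = 0.655 by edgeR), and without control 1 it was -0.38 (SE 0.13). Fkbp8, an outer-membrane LC3 receptor, had 113, 106 and 99.7 CPM in BLAJ libraries and 83.8, 87.8 and 62.2 CPM in controls, and its log2 fold change was 0.45 (SE 0.16, adjusted p = 0.655 by edgeR). It pointed the other way with no overlap. Bcl2l13 (-0.13), Tax1bp1 (-0.19), Tbk1, the kinase of the adaptors (-0.12), and the inner-membrane receptor Phb2 (0.027) had smaller log2 fold changes and overlapping groups.

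Among the genes that import and cut PINK1, the receptor subunit Tomm70a had 87.4, 93.0 and 98.0 CPM in BLAJ libraries and 107, 120.01 and 131 CPM in controls. The values did not overlap, at -0.36 log2 units (SE 0.13, edgeR adjusted p = 0.655). Tomm20, another import receptor, was at 64.2, 59.7 and 62.3 CPM in BLAJ libraries against 78.2, 66.7 and 71.4 CPM in controls, also without overlap (-0.22, SE 0.12). Parl, the protease that cuts imported PINK1, had overlapping groups and a log2 fold change of -0.096. In this list 8 of 11 genes were lower in BLAJ, with a median log2 fold change of -0.067.

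Of the 14 fission and fusion genes, 6 were higher and 8 lower in BLAJ, with a median log2 fold change of -0.016. Dnm1l, the fission GTPase, had 85.8, 77.3 and 99.7 CPM in BLAJ libraries and 120.2, 87.7 and 120.1 CPM in controls, at -0.32 log2 units (SE 0.17). Gdap1, an outer-membrane protein linked to fission, had the lowest value of the list at -0.45 (SE 0.47), with overlapping groups, and was at -0.017 without control 1. Yme1l1, an inner-membrane protease that cuts OPA1, had 95.6, 100.8 and 100.1 CPM in BLAJ libraries and 119, 105 and 109 CPM in controls, without overlap (-0.17, SE 0.12). The DNM1L receptors Fis1 and Mff were at -0.029 and 0.0011 log2 units, and Opa1, which fuses inner membranes, at 0.036. Mul1, an outer-membrane ubiquitin ligase, was at 0.060 log2 units, and the 13 ubiquitin ligases and deubiquitinases had a median of -0.078.

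In the autophagosome list 17 of 29 genes were higher and 12 lower in BLAJ. The LC3 gene Map1lc3a had 197, 178 and 176 CPM in BLAJ libraries, against 249, 462 and 183 CPM in controls, with control 2 well above the other 5 libraries. The log2 difference was -0.70 (SE 0.32, adjusted p = 0.754 by edgeR), and without control 2 it was -0.24. Map1lc3b, the other LC3 gene, had 216, 224 and 151 CPM in BLAJ libraries and 181, 179 and 151 CPM in controls (0.21, SE 0.18), and the autophagy kinase gene Ulk1 had 94.4, 97.4 and 65.3 CPM against 74.7, 73.7 and 60.3 CPM (0.30, SE 0.19). In both, the BLAJ females lay above all controls and the male did not, the arrangement seen for Pink1. Becn1 was at 0.14 and Gabarapl1 at -0.033 log2 units.

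Among the regulators, Foxo3, a transcription factor known to drive autophagy genes and Bnip3 in mouse muscle, had 43.7, 40.5 and 48.9 CPM in BLAJ libraries and 32.2, 37.2 and 23.4 CPM in controls. Here the male BLAJ library was the highest, and the groups did not overlap (0.52, SE 0.19, edgeR adjusted p = 0.655). Nfe2l2, which encodes the antioxidant factor NRF2, an activator of Sqstm1, had 47.5, 44.8 and 40.0 CPM in BLAJ libraries and 34.8, 35.8 and 30.5 CPM in controls (0.39, SE 0.13, edgeR adjusted p = 0.617). Foxo1, of the same family as Foxo3, had the lowest fold change of the list, with 19.8, 18.4 and 26.7 CPM in BLAJ libraries and 53.1, 50.2 and 18.7 CPM in controls (-0.91, SE 0.39, edgeR adjusted p = 0.726). Controls 1 and 2 were high and control 3 lay among the BLAJ values. Mtor, the kinase that restrains autophagy, had 41.5, 45.2 and 47.8 CPM in BLAJ libraries and 54.3, 73.0 and 49.5 CPM in controls, without overlap (-0.39, SE 0.17, edgeR adjusted p = 0.726), and was at -0.21 without control 2. Keap1, the inhibitor of NRF2, was at -0.067 log2 units. Hif1a, the hypoxia factor that induces Bnip3, was at 0.088, and Ppargc1a, the coactivator of mitochondrial biogenesis, at -0.23 log2 units, both with overlapping groups.

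**Figure D5:**
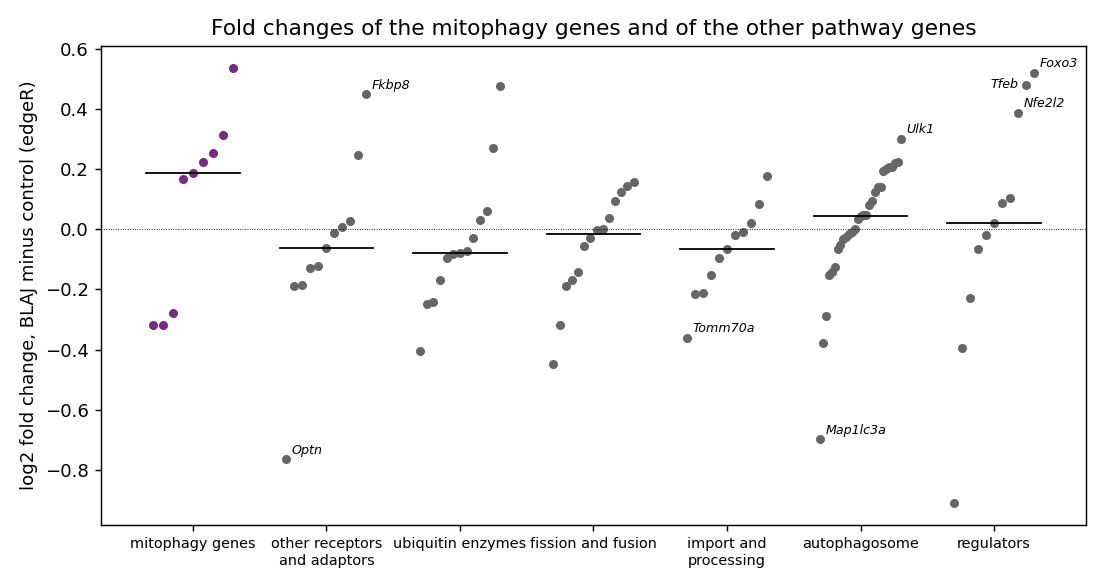
Log2 fold changes (BLAJ minus control, edgeR) of the 9 mitophagy genes (purple) and of the 89 tested pathway genes (grey) by list, sorted within each list, with list medians as lines. List medians lie between -0.078 and 0.19, and no point passes the test across all genes.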

How the data were processed

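Gene expression was measured by poly(A)-selected directional RNA-seq in gastrocnemius muscle of 6 mice. The deposited files give, for every gene, raw counts of read pairs, in 1 matrix and in a file per library with unstranded and strand-specific columns. The submitters' processing notes name STAR 2.7.11b, DESeq2 1.50.2 and the build GRCm39. No source used here gives the annotation release. A results table of the authors holds, per the file headers, the mean normalized signal, log2 fold change, Wald score and p-value of each gene. The 4 entries that name no gene (18.5% to 22.3% of pairs) were left out.

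Counts were tested with edgeR 4.0.16 (R 4.3.3) after TMM normalization and filterByExpr (minimum count 10), by the quasi-likelihood F-test (robust) for BLAJ minus control without covariates. P-values were adjusted by Benjamini-Hochberg over 15589 genes and called below 0.05. SE is the size of the log2 fold change divided by the square root of F. Alternatives were DESeq2 1.42.0, limma-voom (limma 3.58.1), other normalizations and filters, sex or replicate number in the model, males only, each library left out and strand-matched counts. DESeq2 with sex was chosen after seeing the data. No libraries agreed within sampling noise (smallest chi-square 54.6 per degree of freedom). The procedure was tested on simulated data, where edgeR called 20 of 82 genes changed 2-fold (24.4%) and 51 of 59 changed 4-fold (86.4%). Of the genes changed 8-fold it called 53 of 59 (89.8%). A gene not called here can therefore have changed by 2-fold or less, and in some cases by more.

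Members and lists were chosen with earlier results of these data known. Symbols matched 52029 of 57010 IDs. Pathway genes named in the text were chosen by name, with any called list gene and the 2 nearest profiles of each member; Tomm70a, Foxo1, Mtor, Gdap1 and Yme1l1 were named after their values were seen. Exons and shared stretches come from GENCODE M21 (GRCm38), so no gene coordinates are given, and promoters from RefSeq. Plots used matplotlib 3.10.9.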

Additional observations from a re-analysis of the deposited data

How the results depend on the processing

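Over 17 alternatives, 16 of them fixed in advance, the count of mitophagy genes called stayed at 0, except for 1 (Sqstm1) by DESeq2 with sex as a covariate, and the count of pathway genes called stayed at 0 in all. Over all genes edgeR called 31, against 184 by DESeq2, 79 with no filter on low counts, 0 with sex as a covariate (882 at an unadjusted p below 0.05), 0 in males only (594 unadjusted), 11 with the replicate block and 87 by DESeq2 with sex. Leaving out 1 library gave 6 to 49 calls (7 without BLAJ 1, 6 without BLAJ 2, 49 without control 2). The replicate numbers were not shown to pair the animals (correlations of same-numbered deviations 0.227, -0.057 and 0.220, with BLAJ 2 closer to control 1), and the block called 0 mitophagy genes. In males only the lone BLAJ animal was assumed to vary like the controls. Of the alternative log2 fold changes of the mitophagy genes, 143 kept their direction and their side of the threshold, 9 reversed and 1, that of Sqstm1 above, passed the threshold. With sex as a covariate, in males only and by DESeq2 with sex, Pink1 was at -0.20, -0.20 and -0.22, Bnip3l at -0.074, -0.071 and -0.094, Fundc1 at -0.23, -0.22 and -0.24, Mul1 at -0.040, -0.038 and -0.059, Mff at -0.085, -0.082 and -0.10, Ulk1 at -0.092, -0.089 and -0.11, Map1lc3b at -0.17, -0.17 and -0.19, Tfeb at -0.023, -0.022 and -0.042, and Keap1 at 0.053, 0.055 and 0.033. These settings rest on BLAJ 3 as the contrast, by construction. Mff was also at -0.0045 (RLE and DESeq2), -0.0041 (no filter), -0.00055 (at least 1 CPM in 3 libraries) and -0.022 to 0.041 without 1 library (below 0 in 4 of 6). Fis1 was at 0.0027 (upper quartile) and Gabarapl1 at 0.012 (limma-voom and the replicate block). Leaving out 1 library turned Phb2 (-0.055 and -0.045, in a range up to 0.11), Fis1 (0.0038 and 0.021), Opa1 (-0.017, in a range up to 0.089), Gabarapl1 (0.011 to 0.32 where positive) and Ppargc1a (0.15 without control 1). The cause of these was not tested. Without 1 library Pink1 ranged from 0.32 (without BLAJ 1) to 0.80, Park7 from 0.13 (control 1) to 0.36, Sqstm1 from -0.45 to -0.12 (BLAJ 3), Usp30 from -0.39 to -0.17 (BLAJ 2), Bnip3 from -0.43 to -0.25, Bnip3l from 0.057 (control 3) to 0.27, Fundc1 from 0.019 (BLAJ 2) to 0.35 (BLAJ 3), Mfn1 from 0.20 (control 2) to 0.51 (control 1) and Mfn2 from 0.13 (control 2) to 0.35 (control 1). Of the mitophagy genes Usp30 had the fewest reads, with 291 to 534 read pairs per library.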

Other observations

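The adipocyte, endothelial and red blood cell lists had only positive fold changes in BLAJ muscle, and edgeR called 0 of their genes, beside 0.199% of all genes. All 6 adipocyte markers had a positive log2 fold change, with a median of 0.92, and their summed level was 239 to 406 CPM in BLAJ and 156 to 293 CPM in control libraries. All 5 endothelial markers were positive as well, with a median of 0.26 and sums of 253 to 351 CPM in BLAJ and 225 to 244 CPM in control libraries. These sums did not overlap, but of the single markers only Vwf did not overlap, beside 12.1% of all tested genes. The 6 red blood cell markers had a median of 0.47, with Hba-a2 called by DESeq2, beside 1.18% of the genes it tested. Of the 8 slow-fibre genes 7 were positive, with a median of 0.55 and 0 called. Each of the first 3 lists had 1 gene at an unadjusted p below 0.05 in edgeR, beside 6.94% of all genes. Macrophage markers summed to 126 to 211 CPM in BLAJ and 104 to 169 CPM in control libraries, with 0 called and 6 of 8 positive, and fibroblast markers to 635 to 4184 CPM in BLAJ and 661 to 3319 CPM in control libraries, with replicate 3 the highest of each group.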
